A study of Mus musculus with 6 samples.

Results

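The genes described are 45 genes of DNA replication among the 23282 genes counted in 9 RNA-seq libraries of mouse blood-forming cells. The members were taken by name from a list of replication factors, and all 45 symbols were found. They fall into 9 genes of origin licensing, 12 of the replicative helicase, 8 of the polymerases, 6 of the sliding clamp and its loader, 5 that handle single strands and join fragments, 3 of nucleotide supply and 2 that keep DNA methylation through replication.

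A cell copies its genome once per division. In the G1 phase the origin recognition complex, Cdc6 and Cdt1 load the MCM helicase onto DNA, and geminin later blocks reloading by binding Cdt1. In S phase Cdc45 and the GINS complex switch the helicase on, polymerase alpha with primase starts each strand, and polymerases epsilon and delta extend the strands behind the clamp PCNA. Many of these genes are transcribed around the start of S phase under E2F transcription factors, which the pocket proteins of the retinoblastoma family hold back. Their summed RNA in a bulk sample therefore depends both on how many cells are in cycle and on how much each cell holds, and counts from bulk RNA cannot tell these apart.

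All cells came from mice of mixed 129/Sv and C57BL/6 background. The study's design text asks how Mll4, also named Kmt2d, a histone H3 lysine 4 methyltransferase, acts on the transcriptome of primary and transformed blood stem cells. In MLL-AF9 cells, which are bone marrow cells made to grow in culture by a retroviral leukaemia fusion gene, 2 libraries labelled Mll4 deleted came from Mll4f/f marrow infected after transformation with a Cre retrovirus, and 2 intact libraries from Mll4f/f marrow infected with an empty retrovirus. Both were sorted for GFP and Tomato 5 days after infection and carry a growth time of 14 days, and Cre expression goes with the deletion in this pair of groups. From a separate transformation, MLL4-/- marrow received MLL-AF9-neo together with FOXO3-IRES-GFP (2 libraries) or an empty vector (EV, 1 library), was selected in G418, sorted for GFP and has the same growth time. FOXO3 is a transcription factor linked to quiescence and stress resistance. LSK cells, the Sca1 and c-Kit positive, lineage-negative marrow fraction that holds stem cells, were sorted at 2 months of age from polyIC-treated littermates that were MLL4f/f MxCre+ (labelled Mll4 deleted, 1 library) or WT MxCre+ (wild type, 1 library). About 50 picked cells went into each LSK library, with PCR amplification, and both genotypes carried MxCre, a Cre driven by the interferon-inducible Mx1 promoter, and received polyIC.

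Libraries held 25895041 to 61950773 counts. Foxo3 stood at 1292 and 1309 CPM (its share of the library's total counts, in the usual scaled unit) in the FOXO3 libraries and at 27.3 CPM in the EV library. Kmt2d, the deleted gene, had 95.6 and 73.7 CPM with the deletion label in MLL-AF9 cells, against 79.5 and 61.7 CPM where it was intact. In LSK cells it had 13.9 CPM with the deletion label and 1.88 CPM in wild type, against the label. Counts cover the whole gene and no source used here gives the deleted exons. The deletion was therefore not checked, and every direction below rests on the labels. Nothing in the labels says that libraries of 1 group are separate cultures. Xist and Ddx3y counts showed 1 female and 1 male library in each of the groups labelled Mll4 deleted and intact. The FOXO3 pair was far closer than the other pairs: its chi-square per degree of freedom was 1.97, against 191 for the libraries labelled Mll4 deleted and 146 for the intact ones. Its spread may be technical, and results are given also with the pair summed into 1 library. The LSK markers Kit, Cd34 and Flt3 had 102, 292 and 212 CPM with the deletion label, against 46.8, 298 and 221 CPM in wild type.

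The promoters of the members carried E2F-like letters more often than promoters at large. In RefSeq windows of GRCm38.p6 from 250 bases before to 50 bases after a gene's start, 4 spellings, TTTCCCGC, TTTCGCGC, TTTGCCGC and TTTGGCGC, were searched on both strands. A match was found for 16 of the 37 members with a window (43.2%), against 516 of the 11800 tested genes with a window (4.37%) and 3 of 35 mitosis genes (8.57%). The letters CCAAT on either strand, often found in promoters of mitotic genes, were in 67.6% of these members, 42.7% of tested genes and 74.3% of mitosis genes. Such a match is a description of letters and not of a bound site, and the 8 members without a window (Gmnn, Mcm4, Gins1, Gins2, Gins4, Prim2, Pole and Rfc2) are named only. The 50-base stretches below are the 9 in which a match and its 21 flanking bases on each side lie wholly before the start. They are shown as the places of these letters in members of licensing, the helicase, polymerase alpha and methylation maintenance, 5′ to 3′ on the gene's strand, with matches in capitals; in Mcm6 and Mcm5 2 matches on opposite strands overlap in 12 letters.
Mcm6, chr1:128359787-128359836, minus strand: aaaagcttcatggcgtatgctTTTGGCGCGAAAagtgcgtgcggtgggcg
Orc3, chr4:34614955-34615004, minus strand: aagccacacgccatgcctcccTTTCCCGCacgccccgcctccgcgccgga
Mcm7, chr5:138172020-138172069, minus strand: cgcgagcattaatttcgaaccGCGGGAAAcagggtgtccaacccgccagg
Mcm5, chr8:75109335-75109384, plus strand: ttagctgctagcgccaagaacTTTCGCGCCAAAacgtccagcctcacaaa
Gins3, chr8:95633497-95633546, plus strand: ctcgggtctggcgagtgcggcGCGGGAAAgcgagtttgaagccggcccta
Dnmt1, chr9:20952814-20952863, minus strand: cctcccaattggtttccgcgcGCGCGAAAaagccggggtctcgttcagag
Cdc6, chr11:98907992-98908041, plus strand: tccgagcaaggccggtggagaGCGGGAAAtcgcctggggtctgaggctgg
Uhrf1, chr17:56304107-56304156, plus strand: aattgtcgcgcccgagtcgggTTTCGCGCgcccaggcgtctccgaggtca
Pola1, chrX:93632265-93632314, minus strand: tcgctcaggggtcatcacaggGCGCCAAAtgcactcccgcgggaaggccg
In these stretches the match began 41 bases before the start in Orc3 and Gins3, 110 in Mcm6 and 219 in Dnmt1.

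DNA replication genes were higher in MLL-AF9 cells labelled Mll4 deleted. Of the 45 members, 38 passed an adjusted p of 0.05 with higher levels and 0 with lower levels, by the quasi-likelihood test of edgeR, with p-values adjusted by Benjamini-Hochberg over all 14997 genes tested. Across all genes tested 7.97% were called higher and 6.94% lower. No member was lower at an unadjusted p under 0.05 or by DESeq2. All 45 members passed the expression filter. Their median log2 fold change was 1.24, against −0.03 over all genes tested, with a range of −0.27 to 1.76, and 28 members were both called and at least 2-fold higher, as were 3.07% of all genes. Summed over the members, counts stood at 4114 and 4843 CPM in the libraries labelled Mll4 deleted, against 1629 and 1757 CPM in the intact libraries, a ratio of means of 2.65. The fold changes use TMM scaling, which sets the median gene near no change, so they are smaller than ratios of CPM for this comparison. With libraries scaled by their totals the all-gene median stood at 0.24 on the log2 scale.

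The calls depended on the libraries that set the spread. With the FOXO3 pair summed, 19 members were called higher and 0 lower (1.23% and 0.854% of all genes tested), and without FOXO3 library 1 or 2 the count was 19 in each case. Without intact library 1 it was 17. In a fit of only the 4 libraries compared, edgeR called 0 members and 0 genes at all, the smallest adjusted p being 0.0514. There, 41 of 45 members were higher at an unadjusted p under 0.05, against 13.5% of all genes, and their median was 1.29. DESeq2 on the 7 libraries called 41 members higher (12.8% of all genes). Levels after TMM scaling were separate for most members. For 43 of them both libraries labelled Mll4 deleted lay above both intact libraries, as for 31.2% of all genes tested. Orc4 and Orc5 overlapped on that scale, whereas in CPM without it Orc5 did not (21.2 and 24.2 against 19.6 and 19.6 CPM). Within libraries of 1 sex, on the same scale, 43 members were higher in the male and in the female pair. Median log2 ratios over the 45 members were 1.57 (male, 1 library against 1) and 0.94 (female). Every gene in the 31.2% also meets this rule, and neither the share nor the medians over all genes were computed.

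**Figure D1:**
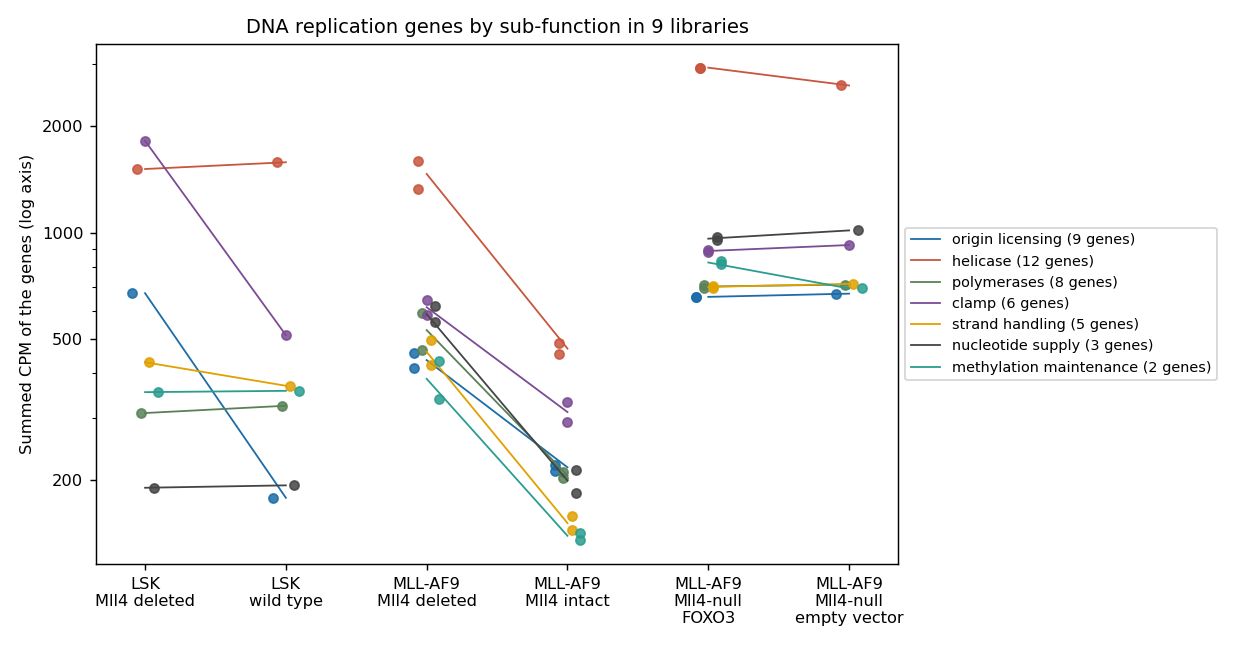
Summed CPM (log axis) of the genes of each sub-function in the 9 libraries; points are libraries and lines join group means within each comparison. In MLL-AF9 cells all 7 sums lay higher in the libraries labelled Mll4 deleted than in the intact ones (helicase 1330 and 1598 CPM with the deletion label, 453 and 487 CPM in intact libraries), and FOXO3 and EV libraries lay close together.

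**Figure D2:**
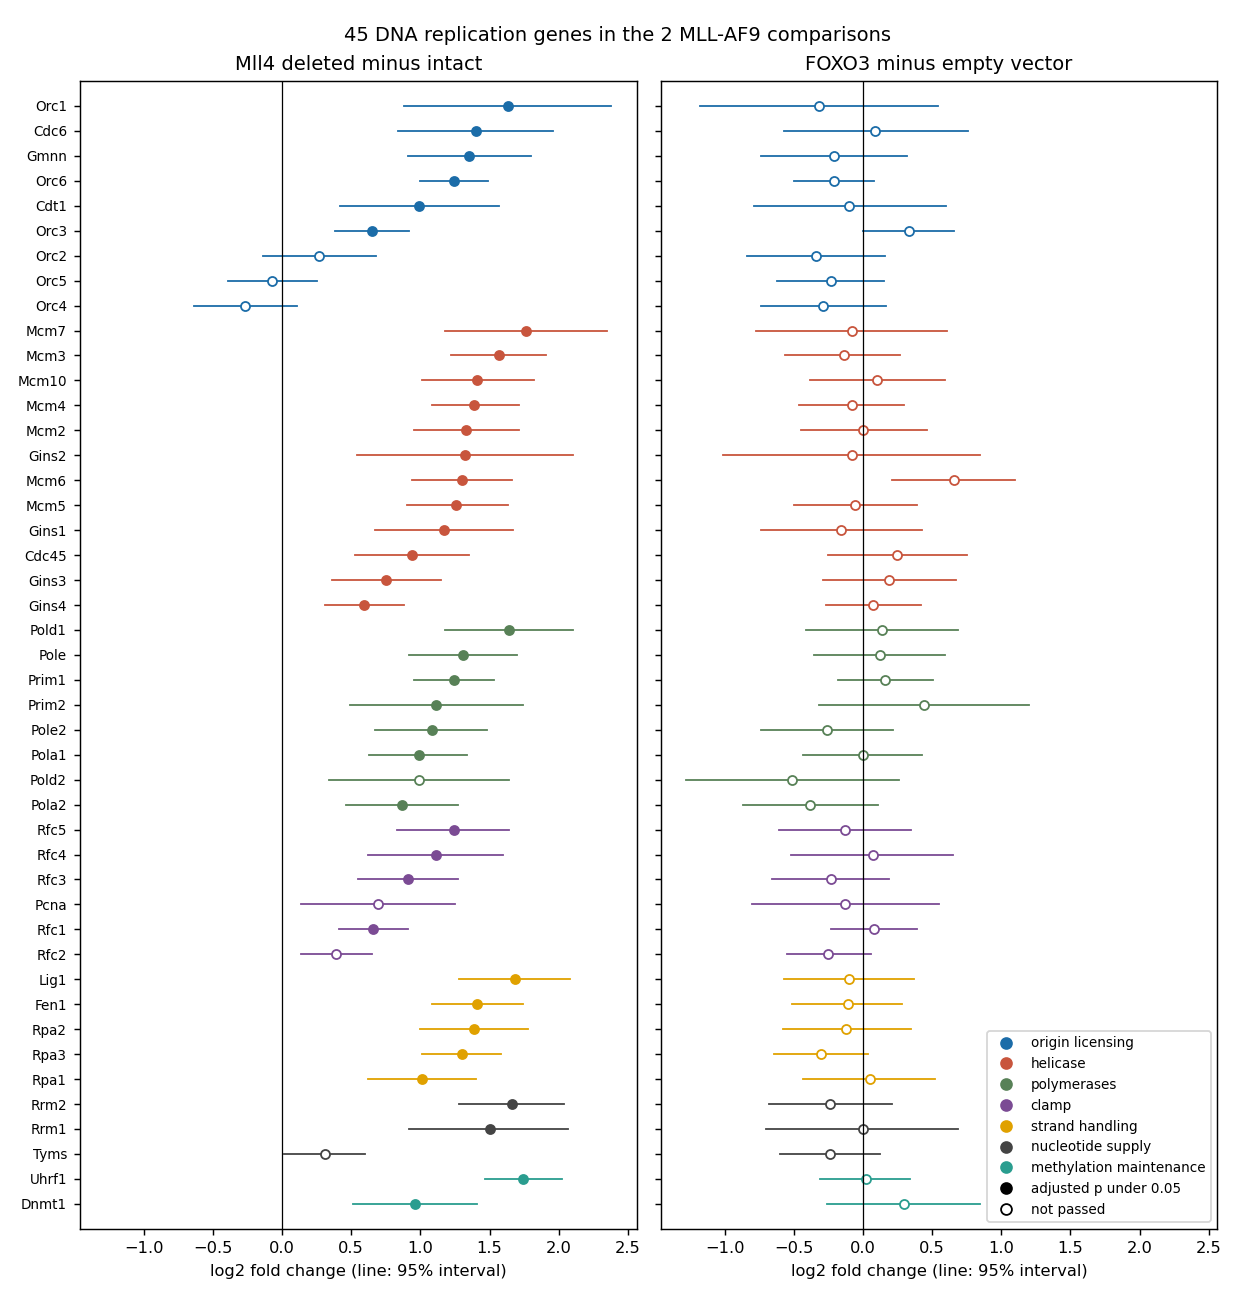
Log2 fold change with its 95% interval for each of the 45 genes after Mll4 loss (left) and with FOXO3 (right) by edgeR; filled points passed an adjusted p of 0.05 over all genes tested. On the left 38 points are filled and lie above 0. On the right none is filled and 43 lie within 0.5 of 0, as do 9599 of all 14997 genes tested.

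Origin licensing genes split. Cdc6, Cdt1, geminin, Orc1, Orc3 and Orc6 were higher in the libraries labelled Mll4 deleted, 6 of 9, whereas Orc2, Orc4 and Orc5 did not pass; the median log2 fold change was 0.99. Orc6 (NCBI gene 56452), the smallest and least tightly bound subunit of the origin recognition complex, stood at 45.1 and 42.1 CPM in the libraries labelled Mll4 deleted, against 16.0 and 14.5 CPM in the intact libraries. These groups lay far apart (log2 fold change 1.24 ± 0.10 SE, adjusted p = 0.00730). Gmnn (57441), the Cdt1 inhibitor geminin, stood at 61.0 and 77.7 CPM with the deletion label, against 20.7 and 23.8 CPM in intact libraries (1.35 ± 0.18, adjusted p = 0.0133). Both kept their calls with the FOXO3 pair summed (adjusted p = 0.0484 each). The loading factor Cdc6 had a log2 fold change of 1.40 ± 0.23 and its partner Cdt1 0.99 ± 0.23; neither was called with the pair summed (adjusted p = 0.0579 and 0.0950).

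Within the origin recognition complex the subunits did not move together. Orc1, the subunit that in human cells is known to be made and degraded with the cell cycle, averaged 15.7 ± 3.42 CPM with the deletion label and 4.12 ± 1.26 CPM in intact libraries (SD, n = 2 each), with a log2 fold change of 1.63 ± 0.30 (adjusted p = 0.0260, and 0.0715 with the pair summed). Orc5 (26429) stood at 21.2 and 24.2 CPM with the deletion label, against 19.6 and 19.6 CPM without it. Its log2 fold change was −0.07 ± 0.13 (adjusted p = 0.752), the nearest to 0 among licensing genes, and over the alternatives it lay between −0.17 and 0.21. Orc2 and Orc4 stood at 0.27 ± 0.17 and −0.27 ± 0.15. Orc3, which carries the E2F-like letters shown above, was higher by 0.65 ± 0.11 (adjusted p = 0.0206, and 0.0738 with the pair summed).

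All 12 helicase genes were higher with the deletion label, with log2 fold changes of 0.59 to 1.76 and a median of 1.31. Mcm3 (17215), a subunit of the MCM2-7 ring that unwinds DNA, stood at 238 and 253 CPM in the libraries labelled Mll4 deleted, against 64.3 and 71.6 CPM in intact libraries. The gap was many times the spread within each group (log2 fold change 1.57 ± 0.14, adjusted p = 0.00790). Mcm4 (17217), another ring subunit, stood at 138 and 151 CPM with the deletion label, against 43.7 and 46.7 CPM in intact libraries (1.39 ± 0.13, adjusted p = 0.00791). Mcm7 had the highest estimate of the 45 members, 1.76 ± 0.24, and its 95% interval ran from 1.18 to 2.35. All 6 ring subunits and Mcm10, a factor needed to start unwinding, kept their calls with the FOXO3 pair summed. Cdc45 and the 4 GINS genes, the partners that activate the ring, did not keep theirs. Gins4 (109145) was the helicase gene nearest to 0, with 36.7 and 41.7 CPM with the deletion label and 21.8 and 20.9 CPM in the intact ones (0.59 ± 0.11, adjusted p = 0.0281, and 0.0929 with the pair summed).

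Of the 8 polymerase genes 7 were higher, and the median of their log2 fold changes was 1.10. Prim1 (19075), the catalytic subunit of primase, stood at 37.6 and 38.8 CPM with the deletion label, against 13.0 and 13.6 CPM in intact libraries (1.24 ± 0.12, adjusted p = 0.00791). Pold1 (18971), the catalytic subunit of polymerase delta, which mainly extends the lagging strand, stood at 71.8 and 102 CPM with the deletion label, against 23.7 and 22.3 CPM in intact libraries (1.64 ± 0.19, adjusted p = 0.0107). In neither gene did the groups overlap. Pole, the catalytic subunit of the leading-strand polymerase epsilon, was higher by 1.31 ± 0.16, and these 3 genes kept their calls with the FOXO3 pair summed, although Pold1 did not pass without intact library 1 (adjusted p = 0.0554). Pola1, the catalytic subunit of polymerase alpha, had 0.99 ± 0.14 (adjusted p = 0.0159) and did not pass with the pair summed (adjusted p = 0.0566). Pola2 (18969), the accessory subunit of polymerase alpha, stood at 185 and 251 CPM with the deletion label, against 103 and 94.5 CPM in intact libraries (0.87 ± 0.16, adjusted p = 0.0274, and 0.0791 with the pair summed). Pold2, the accessory subunit of polymerase delta, had 0.99 ± 0.26 and did not pass (adjusted p = 0.0590).

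Clamp and clamp loader genes had 4 of 6 members higher and the lowest median of the 7 sub-functions, 0.80. Rfc5 (72151), a small subunit of the loader that opens the PCNA ring, stood at 52.1 and 65.4 CPM in the libraries labelled Mll4 deleted, against 19.5 and 21.4 CPM in intact libraries (1.24 ± 0.16, adjusted p = 0.0130). Rfc1 (19687), the large subunit, stood at 99.3 and 107 CPM with the deletion label, against 54.7 and 52.6 CPM in intact libraries (0.66 ± 0.10, adjusted p = 0.0176, and 0.0688 with the pair summed). With the pair summed Rfc5 was the only clamp gene still called (adjusted p = 0.0492). Rfc2 (19718) stood at 113 and 101 CPM with the deletion label and at 73.2 and 61.8 CPM in intact libraries; its groups were apart, but the estimate of 0.39 ± 0.10 did not pass (adjusted p = 0.0558). Pcna, the clamp itself, averaged 295 ± 34.5 CPM with the deletion label and 149 ± 34.2 CPM in intact libraries (SD, n = 2 each). The estimate of 0.69 ± 0.22 on the log2 scale did not pass (adjusted p = 0.0914), and the log2 ratio was 1.22 in the male pair and 0.37 in the female pair. Mouse Pcna has processed pseudogenes with which reads may be shared.

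The 5 genes of strand handling were all higher, with a median of 1.39. Rpa3 (68240), the smallest subunit of the protein that coats single-stranded DNA, stood at 27.5 and 26.3 CPM in the libraries labelled Mll4 deleted, against 8.92 and 9.09 CPM in intact libraries (1.30 ± 0.12, adjusted p = 0.00790). Fen1 (14156), the nuclease that trims flaps between Okazaki fragments, stood at 107 and 124 CPM with the deletion label, against 34.8 and 36.7 CPM in intact libraries (1.41 ± 0.13, adjusted p = 0.00792). Lig1, the ligase that seals those fragments, was higher by 1.68 ± 0.16. These 3 genes and Rpa2 kept their calls with the FOXO3 pair summed. Rpa1 (68275), the large subunit and the member of this group nearest to 0, stood at 128 and 155 CPM with the deletion label and at 54.7 and 60.9 CPM in intact libraries (1.01 ± 0.16, adjusted p = 0.0179, and 0.0593 with the pair summed).

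Both subunits of ribonucleotide reductase, which makes deoxynucleotides, were higher. Rrm2 (20135), the small subunit, stood at 235 and 245 CPM in the libraries labelled Mll4 deleted, against 57.6 and 66.8 CPM in intact libraries (1.66 ± 0.15, adjusted p = 0.00791). Rrm1 (20133), the large subunit, stood at 219 and 288 CPM with the deletion label, against 62.9 and 83.6 CPM in intact libraries (1.50 ± 0.23, adjusted p = 0.0179, and 0.0566 with the pair summed). Tyms (22171), thymidylate synthase, did not follow them: it stood at 103 and 86.5 CPM with the deletion label and at 63.8 and 62.5 CPM in intact libraries. Its estimate of 0.31 ± 0.12 did not pass (adjusted p = 0.139).

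Uhrf1 (18140), which recognises half-methylated DNA behind the fork, stood at 134 and 146 CPM in the libraries labelled Mll4 deleted, against 34.7 and 33.9 CPM in intact libraries. Its fold change of 3.35 (log2 1.74 ± 0.11, adjusted p = 0.00730) had an SE near the smallest of the 45, which ran from 0.10 to 0.32, and Uhrf1 was called with the pair summed. Dnmt1 (13433), the methyltransferase that copies methylation to the new strand, stood at 205 and 288 CPM with the deletion label, against 108 and 102 CPM in intact libraries (0.96 ± 0.18, adjusted p = 0.0276, and 0.0786 with the pair summed). Among members with E2F-like letters in the promoter window, 16 of 16 were called higher with a median of 1.28, among those without 15 of 21 with a median of 1.11, and among those with no window 7 of 8 with a median of 1.24. No test of this difference was made.

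Levels of subunits were compared per kilobase of exon (CPM per kb, with exon lengths from GENCODE M21), and ratios between subunits are ratios of group means. The 6 MCM subunits lay close together: the highest, Mcm3, stood 2.01 times above the lowest, Mcm4, in the libraries labelled Mll4 deleted (at 80.9 over 40.3 CPM per kb) and 1.78 times above it in the intact ones (at 22.4 over 12.6 CPM per kb). Mcm6 and Mcm3 overlapped in the intact libraries, at 21.1 and 23.2 and at 21.2 and 23.6 CPM per kb. The origin recognition subunits were spread more widely, from Orc1 to Orc3: 5.20 to 39.7 CPM per kb with the deletion label (7.63 times) and 1.37 to 20.9 CPM per kb in intact libraries (15.3 times). Orc1 and Orc4 overlapped with the deletion label, at 4.40 and 6.01 and at 6.63 and 5.53 CPM per kb. Orc6 was second in the libraries labelled Mll4 deleted, at 28.3 and 26.4 CPM per kb. In the intact libraries Orc6, at 10.0 and 9.06, overlapped Orc5, at 9.32 and 9.31 CPM per kb. The order of the 5 clamp loader subunits differed between the libraries labelled Mll4 deleted: library 1 ran from Rfc5 at 16.1 to Rfc2 at 22.7 CPM per kb, and library 2 from Rfc3 at 18.0 to Rfc4 at 23.0 CPM per kb. In intact libraries Rfc5 was lowest, at 6.02 and 6.62 CPM per kb, and Rfc2 highest, at 14.6 and 12.4 CPM per kb. Of the 3 RPA subunits Rpa1 was lowest, at 24.9 and 30.2 CPM per kb with the deletion label and 10.6 and 11.9 CPM per kb in intact libraries. GINS genes ran from Gins3 to Gins4, 4.95 times with the deletion label and 5.54 times in intact libraries. Gins2 and Gins3 overlapped in intact libraries, at 2.36 and 3.77 and at 2.79 and 2.93 CPM per kb.

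**Figure D3:**
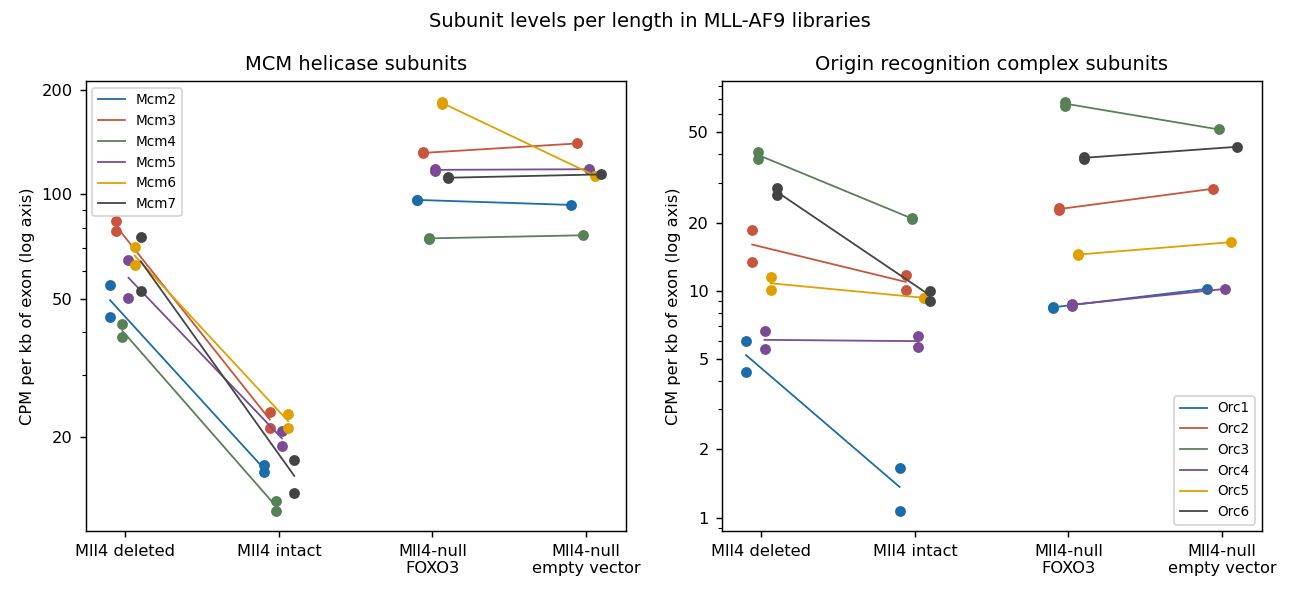
CPM per kilobase of exon (log axis) of the 6 MCM helicase subunits (left) and the 6 origin recognition subunits (right) in the 7 MLL-AF9 libraries; points are libraries and lines join group means within a comparison. The MCM subunits stayed within 2.46 times of each other in every group, with Mcm6 highest with FOXO3 (184 CPM per kb), while Orc1 to Orc3 spanned 5.03 to 15.3 times.

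Other genes of the cell cycle were also higher with the deletion label. In a second list of 45 replication factors that are not members, 29 were higher and 1 lower, the median being 0.91 on the log2 scale; when the FOXO3 pair was summed, 16 were higher and 0 lower. Its highest were Tk1, thymidine kinase of the salvage pathway (1.89 ± 0.15, adjusted p = 0.00730), and Chtf18 and Dscc1, both of the alternative clamp loader (1.76 ± 0.21 and 1.42 ± 0.32, adjusted p = 0.0111 and 0.0394). Its lower gene was Rrm2b, the p53-inducible small subunit of ribonucleotide reductase, at 12.8 and 9.30 CPM with the deletion label and 19.0 and 18.9 CPM in intact ones (−1.05 ± 0.19, adjusted p = 0.0248). Rrm2 and Rrm2b, which encode alternative small subunits of the same enzyme, thus moved in opposite directions. Of 44 mitosis genes 37 were higher and 0 lower, with a median of 1.05 and none lower at an unadjusted p under 0.05 or by DESeq2; 13 were called with the pair summed. Of 13 E2F and pocket protein genes 5 were higher, E2f4, E2f7, E2f8, Tfdp1 and Tfdp2, with a median of 0.41. The atypical repressors E2f7 and E2f8 stood at 1.14 ± 0.17 and 0.94 ± 0.14, and the activator E2f1 at 0.41 ± 0.16 (adjusted p = 0.142). With the pair summed edgeR called 0 of these 13, with 7 at an unadjusted p under 0.05.

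Marker lists of blood cells moved in different directions, with the primary granule list higher and the macrophage list lower. Of 12 genes on a primary granule list, 7 were higher. The summed level of the list was 14457 and 17577 CPM with the deletion label and 3721 and 4126 CPM in intact libraries. The list is broad: Calr and Clec12a, which do not encode granule proteins, were among the 7. Calr alone held 2417 and 2232 CPM of the sums with the deletion label and 890 and 997 CPM in intact libraries. Of 20 macrophage genes 0 were higher and 6 lower, with a median of −1.39 and sums of 21283 and 29196 CPM with the deletion label against 59167 and 87326 CPM in intact libraries. Among macrophage genes 1 was higher at an unadjusted p under 0.05 and 1 by DESeq2. The sums of megakaryocyte genes, 6 of 10 lower, were 542 and 661 CPM with the deletion label and 1059 and 735 CPM in intact libraries. The sums of erythroid genes, 5 of 10 tested lower, were 39.4 and 13.7 CPM with the deletion label and 55.7 and 24.4 CPM in intact libraries. With the FOXO3 pair summed 4 genes of the primary granule list were higher, and 3 macrophage, 2 megakaryocyte and 1 erythroid genes were lower. B cell and T and NK cell lists had 0 calls by edgeR, with 0 and 3 genes at an unadjusted p under 0.05 and 0 and 1 called by DESeq2. Pax5, Ebf1, Ms4a1, Cd3e, Cd4, Hbb-b1 and Hba-a1 were at or below 3 counts in all MLL-AF9 libraries. The part of these other cell stages in the replication result was not tested.

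**Figure D4:**
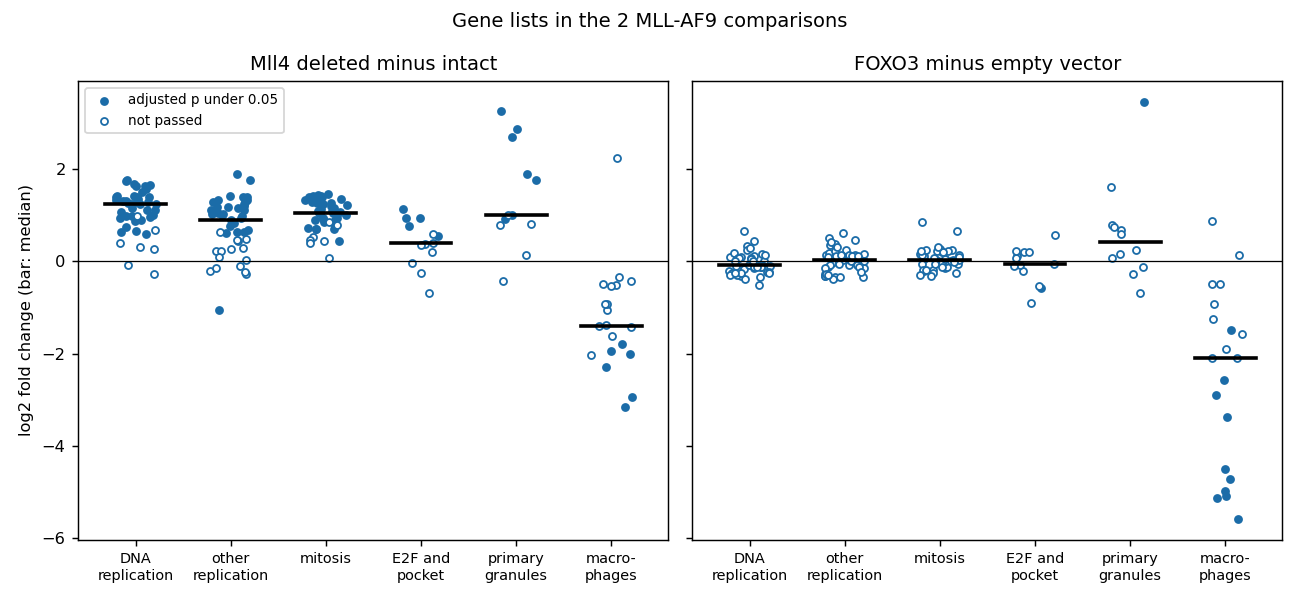
Log2 fold change of each gene of 6 lists after Mll4 loss (left) and with FOXO3 (right); bars are list medians and filled points passed an adjusted p of 0.05 over all genes tested. After Mll4 loss the replication and mitosis lists lay above 0 (medians 1.24, 0.91 and 1.05) and the macrophage list below it (−1.39); with FOXO3 the replication and mitosis lists lay around 0 and the macrophage list at a median of −2.09.

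The FOXO3 comparison asked what the factor changes in Mll4-null MLL-AF9 cells. With FOXO3, edgeR called 0 of the 45 replication genes higher and 0 lower, while 2.20% of all genes tested were called higher and 4.93% lower. The members' median log2 fold change was −0.08, with a range of −0.51 to 0.66. Of the members 43 lay within 0.5 of 0, as did 9599 of all 14997 genes tested. Their summed level was 7644 and 7675 CPM in the FOXO3 libraries and 7336 CPM in the EV library, a ratio of 1.04. For 40 members the 95% interval of the log2 fold change lay within 1 unit of 0 on either side, and for 35 with the FOXO3 pair summed; Orc1, Mcm6, Gins2, Prim2 and Pold2 were outside in both. At an unadjusted p under 0.05 there were 2, Orc3 and Mcm6, and DESeq2 called Mcm6 alone (5.51% of all genes higher). In a fit of only these 3 libraries edgeR called 15 members higher and 20 lower, where 34.1% and 35.9% of all genes were called, with a spread that comes from the FOXO3 pair alone. With that pair summed 0 were called in either direction (0.213% and 0.974% of all genes). With 1 EV library the spread of that group was taken from the other 3 groups.

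Mcm6 (17219) had the highest estimate among members and did not pass. It was at 810 and 796 CPM with FOXO3 and at 493 CPM with the empty vector, whereas the other 5 ring subunits had log2 fold changes of −0.14 to 0.00. Its own was 0.66 ± 0.18 (95% interval 0.21 to 1.10, adjusted p = 0.0954 by edgeR, and 0.353 or more for every member with the pair summed), and no test of Mcm6 against the other subunits was made. Per kilobase, Mcm6 was the highest ring subunit with FOXO3, at 185 and 182 CPM per kb, and below Mcm3 with the empty vector, at 113 against 140 CPM per kb. Orc3 (50793) stood at 150 and 157 CPM with FOXO3 and at 118 CPM with the empty vector (0.33 ± 0.13, adjusted p = 0.216). The members of the other sub-functions with the smallest p did not pass. Pola2 stood at 144 and 141 CPM with FOXO3 and 179 CPM with the empty vector (−0.38 ± 0.20, adjusted p = 0.325). Rfc2 stood at 118 and 118 CPM with FOXO3 and 135 CPM with the empty vector (−0.25 ± 0.12, adjusted p = 0.313), and Rpa3 at 46.3 and 47.2 CPM with FOXO3 and 55.6 CPM with the empty vector (−0.30 ± 0.14, adjusted p = 0.270). None of these estimates reached 0.5 in size. Tyms was at 133 and 131 CPM with FOXO3 and 151 CPM with the empty vector (−0.24 ± 0.14, adjusted p = 0.393), and Dnmt1 at 538 and 554 CPM with FOXO3 and 431 CPM with the empty vector (0.30 ± 0.22, adjusted p = 0.501).

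Related lists gave few calls with FOXO3 as well. The second list of replication factors and the mitosis list had 0 calls by edgeR in either direction, with 7 and 2 genes at an unadjusted p under 0.05, and 2 and 1 by DESeq2. Their medians were 0.04 and 0.03. Among E2F and pocket protein genes E2f4, a partner of the pocket proteins, was lower (114 and 112 CPM with FOXO3, 163 CPM with the empty vector, −0.57 ± 0.10, adjusted p = 0.0340), but 0 of these 13 genes passed with the FOXO3 pair summed (smallest adjusted p = 0.300) or with library sex as a term (0.0546). Macrophage genes had 10 of 20 members lower with FOXO3, with sums of 1384 and 1374 CPM against 3487 CPM with the empty vector, and 9 of 10 erythroid genes tested were lower. With the pair summed 2 of 20 macrophage and 3 of 10 erythroid genes were lower. The difference between the Mll4 and FOXO3 comparisons was not tested.

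Across the transformations the levels were highest in the Mll4-null cells. After TMM scaling, the 3 Mll4-null libraries (FOXO3 and EV) all lay above both libraries labelled Mll4 deleted for 41 of 45 members. The same held for 28.6% of all genes tested, and 1 member, Pola2, lay below in all. The members' sum in the EV library was 1.64 times the mean sum of the libraries labelled Mll4 deleted, at 1.54 times for licensing, 1.78 times for the helicase, 1.35 times for polymerases and 1.80 times for methylation maintenance. All 3 Mll4-null libraries were male by Ddx3y, while the libraries labelled Mll4 deleted were 1 female and 1 male. Against the male one alone, on the same scale, 42 members were higher in all 3 Mll4-null libraries and 2 lower. The share of all genes higher by this looser rule was not computed and is at least the 28.6% above. The count therefore describes the members only. These are separate transformations with different vectors and selection, no test was made, and macrophage sums differed along with them, at 1374 to 3487 CPM in the Mll4-null libraries and 21283 and 29196 CPM in those labelled Mll4 deleted.

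In LSK cells, with 1 library per genotype and no test, replication genes differed in both directions. Of the 26 members with at least 50 CPM in 1 LSK library, 11 were at least 2-fold higher in the library labelled Mll4 deleted and 4 at least 2-fold lower, while of all 3284 such genes 28.2% were higher and 30.3% lower by that much. The median log2 ratio of these members was 0.77, against 0.00 for all such genes. Of the 26, 9 reached 50 CPM only with the deletion label and 3 only in wild type, so they had to differ, and these counts and the median are a description of the members that passed. Over all 45 members, with counts of 0 to 3 set to 3, 17 were at least 2-fold higher and 9 at least 2-fold lower, and the median was 0.41. Shares and a median over all genes without the 50 CPM cut were not computed, so these values describe the members only. The members' sum was 5287 CPM in the library labelled Mll4 deleted and 3515 CPM in the wild type library. Most of that gap lay in the clamp genes, at 1817 CPM with the deletion label and 513 CPM in wild type, and in licensing genes, at 674 CPM with the deletion label and 178 CPM in wild type. Helicase sums were 1512 CPM with the deletion label and 1580 CPM in wild type, and polymerase sums 309 CPM with the label and 324 CPM in wild type.

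In the clamp group 5 of 6 genes were more than 2-fold higher in the LSK library labelled Mll4 deleted, with 1 library per genotype. Of all 3284 genes with at least 50 CPM in 1 LSK library, 28.2% were at least 2-fold higher. Pcna stood at 1118 CPM with the deletion label and 304 CPM in wild type (log2 ratio 1.88, 95% exact binomial interval 1.84 to 1.91), and Rfc4, a small loader subunit, at 105 CPM with the deletion label and 6.62 CPM in wild type (3.99, 3.77 to 4.22). Rfc2, Rfc3 and Rfc5 had ratios of 2.50, 1.83 and 1.68. The large subunit Rfc1 went the other way, at 19.1 CPM with the deletion label and 67.1 CPM in wild type (−1.81, −1.96 to −1.67). Gmnn had the highest ratio of the 26, with 2448 counts (94.5 CPM) under the deletion label and 29 counts (1.09 CPM) in wild type, a log2 ratio of 6.44 (5.91 to 7.02). Lig1 stood at 127 CPM with the deletion label and 11.2 CPM in wild type (3.51, 3.33 to 3.68). Rfc3, Rfc4, Gmnn and Lig1 reached 50 CPM only with the deletion label, so they had to be higher there. Rfc1 and Pole reached 50 CPM only in wild type, so they had to be lower with the label. The lowest of the 26 was Mcm3, at 142 CPM with the deletion label and 505 CPM in wild type (−1.84, −1.89 to −1.78), followed by Rfc1 and by Pole at 20.9 CPM with the label and 71.2 CPM in wild type (−1.77, −1.91 to −1.63). Ring subunits of the helicase thus ranged from Mcm3 to Mcm6, which stood at 389 CPM with the label and 134 CPM in wild type (1.54, 1.48 to 1.59), with Mcm2, Mcm5 and Mcm7 between −0.31 and 0.38.

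These intervals hold counting error alone, because PCR copies from about 50 cells are not independent molecules. Genes at 0 show this limit: Orc1 had 0 counts in the library labelled Mll4 deleted and 76 in wild type, whereas Orc5 had 44 counts with the label and 0 in wild type. Pola1 had 5 counts with the label and 0 in wild type. A count of 0 allows up to 0.116 CPM (3 counts) in the library labelled Mll4 deleted and 0.113 CPM in the wild type library. The 19 members under 50 CPM in both LSK libraries are not compared further. Erythroid markers, at 485 CPM with the deletion label and 1769 CPM in wild type, also differed between these libraries, and their part was not tested.

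**Figure D5:**
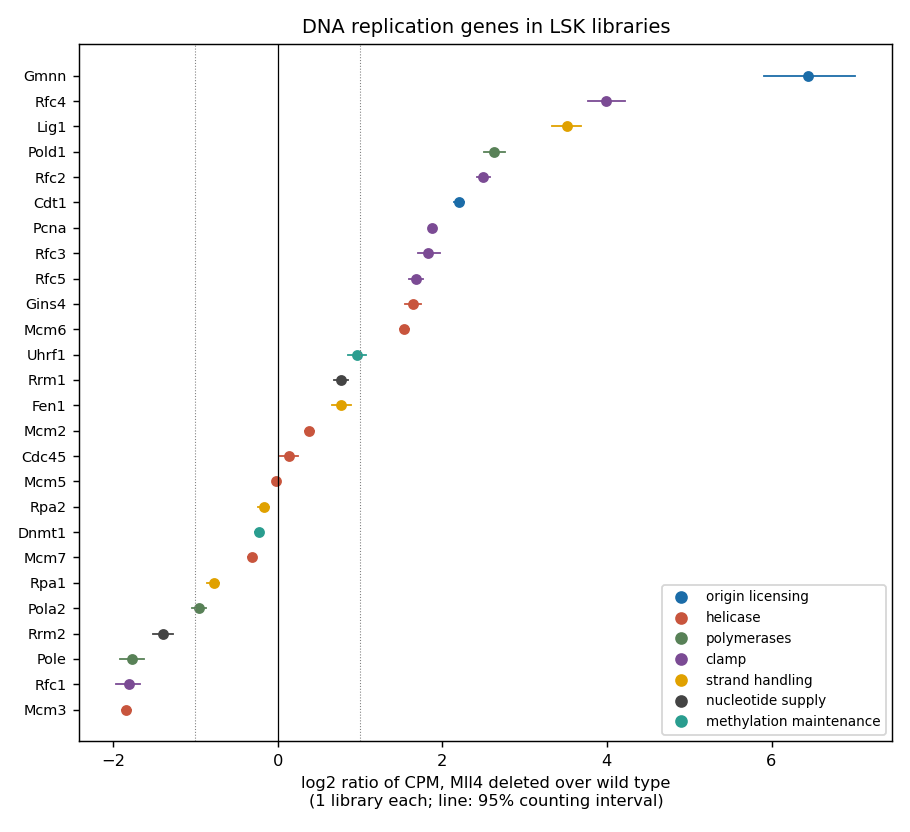
Log2 ratio of CPM, library labelled Mll4 deleted over wild type, for the 26 members with at least 50 CPM in 1 LSK library; lines are 95% exact binomial intervals of counting error and dotted lines mark 2-fold. Ratios ran from −1.84 (Mcm3) to 6.44 (Gmnn), with 11 genes beyond 2-fold to the right and 4 to the left.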

How the data were processed

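RNA-seq libraries were made from LSK and MLL-AF9 cells. The authors deposited raw read counts, 1 file per library, for 23282 NCBI gene numbers. Per the submitters' processing notes, TopHat2 2.0.11, Bowtie 0.12.8 and build mm9 were used; the counting tool, its annotation and strand setting were not given in the sources used here, and overlapping, antisense and duplicated genes are therefore uncertain. Names came from the RefSeq table of GRCm38.p6 (23185 matched, 97 not; unmatched numbers took 0.0373% to 1.01% of counts and stayed in the totals), and promoter sequences from RefSeq of that build. Exon lengths came from GENCODE M21 (GRCm38), another build than mm9.

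CPM scale counts by the library total. Fold changes come from edgeR 4.0.16 in R 4.3.3 (TMM, default expression filter, quasi-likelihood test, Benjamini-Hochberg over all genes, threshold 0.05), with the 7 MLL-AF9 libraries in 1 fit and a coefficient for each of 4 groups. Errors of log2 fold changes are SE. The LSK libraries, 1 each, were compared by CPM ratios with 95% exact binomial (Clopper-Pearson) intervals. Alternatives were other scalings and filters, robust estimation, DESeq2 1.42.0, the FOXO3 pair summed, only the libraries compared, the replicate number, library sex and each library left out. The test was tested on simulated data. Totals of 31713351 to 61950773 counts in the MLL-AF9 libraries make counting error small for members there.

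Values in every library are given, in each sub-function, for the 2 members with the smallest p for Mll4 loss, the 1 for FOXO3 and the 1 nearest to 0 for Mll4 loss; for LSK cells, the 3 highest and 3 lowest ratios. Other named members were picked with their values known. Members, lists and rules were chosen with earlier results of these data known.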

Additional observations from a re-analysis of the deposited data

Results flagged for a closer look

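Members at opposite directions in the 2 cell types were marked: called higher in MLL-AF9 libraries labelled Mll4 deleted, and at least 2-fold lower in the LSK library with that label. Only the 26 members with at least 50 CPM in 1 LSK library were considered. There were 4. Of all 3284 genes at that level in LSK cells, 30.3% were at least 2-fold lower, so being lower there does not set these members apart. The share of all genes that met both rules was not computed. In LSK cells Mcm3 had a log2 ratio of −1.84, against a log2 fold change of 1.57 in MLL-AF9 cells. Rfc1 had −1.81 in LSK cells and 0.66 in MLL-AF9 cells, and Pole −1.77 and 1.31. Rrm2 had −1.39 in LSK cells (30.0 CPM with the deletion label, 78.6 CPM in wild type) and 1.66 in MLL-AF9 cells. Rfc1, Pole and Rrm2 reached 50 CPM only in wild type, so they had to be lower with the deletion label, though not by 2-fold. The difference between the cell types was not tested, since each LSK genotype has 1 library made by another protocol.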

How the results depend on the processing

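Of the 45 members, 38 were called higher after Mll4 loss. The count was 33 to 42 with other scalings, filters, robust estimation, DESeq2 or library sex as a term. It was 19 with the FOXO3 pair summed and 0 in a fit of only the 4 libraries compared. That fit has fewer samples to set the spread and also leaves out the FOXO3 pair. The chi-square per degree of freedom of that pair was 1.97, against 191 and 146 for the pairs labelled Mll4 deleted and intact. The part of each in the lower counts was not tested. Leaving out each library gave 17 to 40 (lowest without intact library 1; 19 without either FOXO3 library). None was called lower under any of these. Of 18 alternatives, Uhrf1, Orc6, Mcm3, Mcm4, Prim1, Rpa3, Fen1 and Rrm2 lost their calls in 1, the fit of 4 libraries. Gmnn, Pold1 and Rfc5 lost theirs in 2, Rfc1, Rpa1 and Rrm1 in 5, and Gins4, Pola2 and Dnmt1 in 6, while Rfc2 and Tyms, not called, passed in 7 and 2. With FOXO3 DESeq2 called 1 higher, Mcm6, and a fit of only the 3 libraries compared, whose spread comes from the near-technical FOXO3 pair, called 15 higher and 20 lower, where 34.1% and 35.9% of all genes were called; the other alternatives called 0.

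The replicate numbers did not mark a pairing: same-numbered libraries labelled Mll4 deleted and intact correlated at 0.184 in their deviations, and those with FOXO3 at 0.0245 and 0.0173. The replicate block gave 39 higher members. No paired analysis was possible for FOXO3 because it has 1 EV library, so its groups share fewer than 2 numbers.

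The ratio of summed levels between EV and Mll4-deleted libraries was 1.57 and 1.60 under other scalings, and the LSK median 0.76 and 0.75. Over all 45 members that median was 0.41. One library per LSK genotype, about 50 cells each, limits what that comparison shows. The counts over all 45 members in LSK cells and against the male library labelled Mll4 deleted alone were chosen after seeing the data.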
